A study of Mus musculus with 15 samples.

Results

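Flavin-containing monooxygenases are enzymes of the endoplasmic reticulum that use NADPH, a bound FAD and molecular oxygen to add an oxygen atom to nitrogen and sulphur atoms of drugs, amines and sulphur compounds. They work beside the cytochromes P450 but take electrons from NADPH directly, without the P450 reductase. In the liver they oxidise foreign compounds and some of the body's own metabolites. Here 4 genes of this family, Fmo1, Fmo2, Fmo4 and Fmo5, were followed in mouse liver. They were taken by name from a table of 54532 genes. The family was chosen by its measured levels in the same 15 libraries, with their differences between strains and oxygen groups already known. These values are therefore given as a description, and no p-value is printed for the 4 genes. Where any of the 4 is said to be called, its adjusted p in the fit over all genes was under 0.05. Such calls, and their counts over alternative fits, describe the fit and are no independent evidence.

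The livers came from mice of 2 strains at postnatal day 12. They belong to a study of oxygen-induced retinopathy, a loss and regrowth of retinal vessels after high oxygen in early life, which compares a resistant with a susceptible strain; C57 mice are known as susceptible and BALBc mice as resistant. Every mouse breathed room air to day 7, and then either 75% oxygen (hyperoxia) or room air (normoxia) to day 12. Hyperoxia was represented by 4 livers of each strain, and normoxia by 4 of C57 and 3 of BALBc, with no genetic alteration or other agent named in the labels. The substrain and sex were not given in the sources used here. Xist, transcribed from the inactive X chromosome of females, stood at 49.6 to 66.2 FPKM in 7 libraries and at no more than 0.0996 FPKM in the other 8. The libraries with Xist were 2 of 4 in C57 normoxia, 1 of 4 in C57 hyperoxia, 2 of 3 in BALBc normoxia and 2 of 4 in BALBc hyperoxia, so the groups mix the sexes unequally. Further, the labels do not say that replicates were separate animals, so the spread between libraries may be technical in part.

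The deposited unit is FPKM, a fragment count scaled for transcript length and library size. Weak values lay in steps of 1 fragment, from which each library's scaling total was found to be 1.49e+07 to 1.91e+07 fragments. Behind the FPKM stood 2946 to 6234 fragments for Fmo1, 2535 to 6318 for Fmo5, 626 to 3909 for Fmo2 and 237 to 843 for Fmo4. A split of unknown origin ran through the libraries: of the genes with 1 to 10 fragments, 29.9% to 33.7% had a single fragment in 7 libraries and 10.3% to 18.4% in the other 8. The 7 were BALBc normoxia 1, BALBc hyperoxia 1, C57 normoxia 4 and the whole C57 hyperoxia group, so within C57 the class moves with oxygen. The hepatocyte markers marked the tissue as labelled, with a sum over 12 genes of 91570 to 120500 FPKM in every library.

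Fmo4, Fmo1 and Fmo2 lie next to each other on the minus strand of chromosome 1 (GRCm38), within 105539 bases. Fmo4 (ENSMUSG00000026692) spans 162793188 to 162813972, Fmo1 (ENSMUSG00000040181) spans 162829561 to 162866610, and Fmo2 (ENSMUSG00000040170) spans 162874317 to 162898726. Between Fmo4 and Fmo1 lie 15588 bases, and between Fmo1 and Fmo2 there are 7706. Fmo5 (ENSMUSG00000028088) lies apart on the plus strand of chromosome 3, from 97628804 to 97655282. GENCODE M21 places no other gene across any of the 4, so no overlapping or antisense gene shares their exons.

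RefSeq start-site windows (GRCm38.p6) were at hand for 3 of the 4 genes, Fmo2, Fmo4 and Fmo5. Of the 4 Fmo genes, Fmo2 and Fmo4, both in the chromosome 1 group, had the largest strain differences on the log2(FPKM + 1) scale. In normoxia the difference of Fmo4 (0.84 ± 0.14, SE) was close to that of Fmo5 (0.80 ± 0.10). Stretches before the RefSeq start sites of Fmo2 and Fmo4 are therefore shown. They are the reference sequence, 5′ to 3′ on the minus strand, and capitals mark a match to a searched motif.
Fmo2, chr1:162898759-162899008: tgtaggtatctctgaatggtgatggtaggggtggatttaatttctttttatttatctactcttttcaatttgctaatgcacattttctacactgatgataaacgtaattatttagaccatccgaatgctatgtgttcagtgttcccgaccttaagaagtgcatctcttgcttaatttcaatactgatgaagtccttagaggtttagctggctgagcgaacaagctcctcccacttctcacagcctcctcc
Fmo4, chr1:162812654-162812799: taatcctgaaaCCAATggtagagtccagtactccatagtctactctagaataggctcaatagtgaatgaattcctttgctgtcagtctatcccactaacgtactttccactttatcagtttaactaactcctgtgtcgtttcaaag

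The Fmo2 stretch ends at the base before the start site, and the Fmo4 stretch ends 104 bases before it, where an annotated Fmo4 exon begins. The RefSeq start of Fmo4 lies inside the gene's GENCODE span, so the Fmo4 stretch lies downstream of the first base of that span, outside its annotated exons. The 250 bases before each start site were searched on both strands for the motifs named here, and the share of 32851 windows of the same length that hold each is given with it. The TATA box was searched as TATAAA and is held by 12.4% of windows. The CCAAT box, searched by those letters, is held by 33.8%. A half-site of nuclear receptors was searched with the letters AGGTCA (14%). The core bound by hypoxia-inducible factors was searched as ACGTG (16.6%), the core bound by the aryl hydrocarbon receptor was searched as GCGTG (28.2%), and the core of the antioxidant response element was searched as TGACNNNGC (10.2%). None of these was found in the Fmo2 window. The Fmo4 window held the CCAAT box, which is in capitals above, and a nuclear receptor half-site on the opposite strand, 75 to 70 bases before the start. The Fmo5 window held a TATA box and a CCAAT box, each on the opposite strand. A match is a run of letters, not a binding site.

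Fmo5 and Fmo1 were the most abundant of the 4 genes per kilobase, and Fmo4 the least. In C57 normoxia Fmo5 made up 44.4% ± 3.86 (mean ± SD, n = 4) of the summed FPKM of the 4 genes, Fmo1 39.5% ± 3.08, Fmo2 9.87% ± 0.657 and Fmo4 6.24% ± 1.46. In BALBc normoxia the Fmo2 share was 20.1% ± 2.54 (n = 3). The sum of the 4 genes was 78.6 ± 2.23 FPKM in C57 normoxia and 87.5 ± 7.58 in C57 hyperoxia (n = 4 each). It was 152.3 ± 5.17 in BALBc normoxia (n = 3) and 128.4 ± 4.69 in BALBc hyperoxia (n = 4), so that every BALBc library (122.9 to 158.2) lay above every C57 library (76.9 to 94.6). Of the remaining family rows described here, Fmo6 stood at 0 to 10 fragments per library and Fmo9 at 0 in all 15, which allows up to 3 fragments in each. Neither reached the level required for testing, 1 FPKM in 3 or more libraries, which all 4 genes passed.

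**Figure D1:**
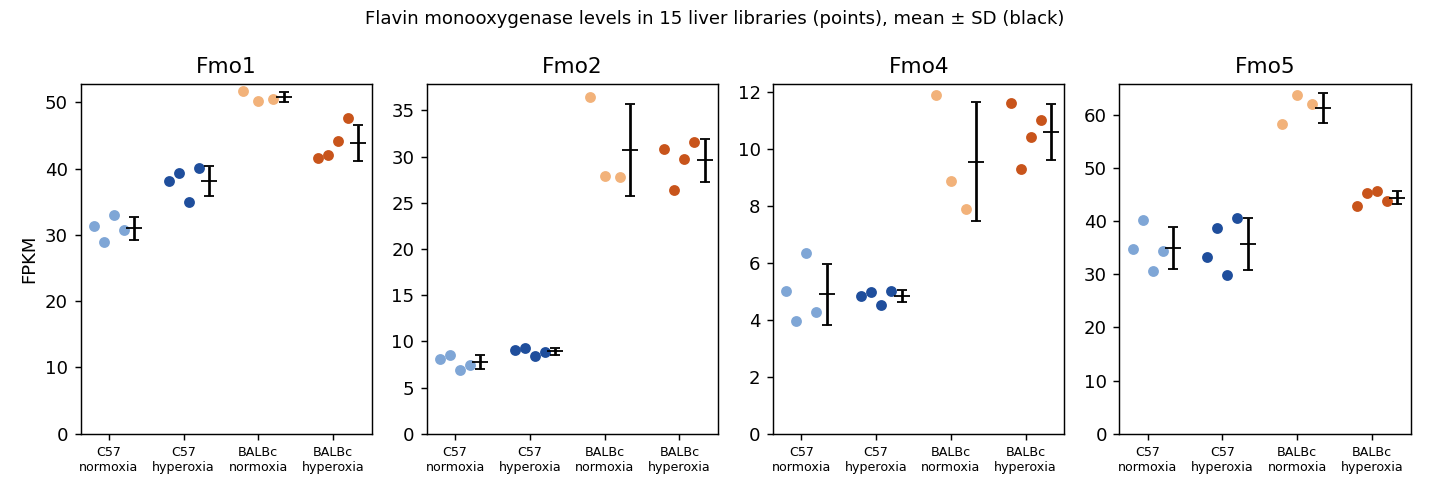
FPKM (y axis, from 0) of Fmo1, Fmo2, Fmo4 and Fmo5 in the 4 groups (x axis). Each point is 1 library and the black mark is the group mean ± SD (n = 4, and n = 3 for BALBc normoxia); for every gene the BALBc points of each oxygen condition lie above the C57 points of the same condition.

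Fmo1 encodes a liver enzyme with a broad range of amine and sulphur substrates, which also turns hypotaurine into taurine. In C57 normoxia its levels were 31.3, 28.9, 33.0 and 30.7 FPKM, and in C57 hyperoxia 38.1, 39.4, 34.9 and 40.1 FPKM. In BALBc normoxia they were 51.7, 50.2 and 50.6 FPKM, and in BALBc hyperoxia 41.6, 42.1, 44.2 and 47.6 FPKM. The 4 groups thus stood in a ladder without overlap between neighbours: C57 normoxia lowest, then C57 hyperoxia, BALBc hyperoxia and BALBc normoxia. The hyperoxia libraries of both strains lay between the normoxia libraries of the strains.

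The means of Fmo1 were 31.0 ± 1.69 and 38.1 ± 2.31 FPKM in C57 normoxia and hyperoxia (n = 4 each), 50.8 ± 0.787 in BALBc normoxia (n = 3) and 43.9 ± 2.72 in BALBc hyperoxia (n = 4). The strain gap was 19.8 FPKM in normoxia and 5.75 FPKM in hyperoxia. On the log2(FPKM + 1) scale of the model fitted across 13026 genes with limma, hyperoxia minus normoxia was 0.29 ± 0.07 (SE) in C57 and -0.21 ± 0.07 in BALBc. The difference of these responses was -0.50 ± 0.10, and it passed an adjusted p of 0.05, on values already known when the gene was chosen. BALBc minus C57 was 0.70 ± 0.07 in normoxia and 0.20 ± 0.07 in hyperoxia. Of 6314 stretches of 50 bases in Fmo1 transcripts, 7.02% also occur in transcripts of other genes, most of them in Gm48161, and whether shared reads were counted was not given in the sources used here.

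The call on the difference of the Fmo1 responses was lost in 9 of 15 refits that left out 1 library, namely C57 hyperoxia 1, 2 or 4, any BALBc normoxia library, or BALBc hyperoxia 1, 2 or 3, and the log2 difference in all refits stayed between -0.54 and -0.45. It was also lost with the replicate number as a block, with array weights and with library class as a term, so it was kept in 13 of 25 alternatives. Within the class of libraries with many genes at 1 fragment, C57 normoxia 4 stood at 30.7 FPKM and C57 hyperoxia at 34.9 to 40.1. In that class BALBc normoxia 1 stood at 51.7 and BALBc hyperoxia 1 at 41.6. In the other class the BALBc levels were 50.2 and 50.6 FPKM in normoxia and 42.1 to 47.6 in hyperoxia. These within-class values rest on 1 normoxia library in C57 and on 1 library against 1 in BALBc for the first class. In C57 the class with few such genes held no hyperoxia library. The 10 Kupffer cell and macrophage markers summed to 461.5 to 553 FPKM in C57 hyperoxia and 648 to 1022 in C57 normoxia. They did not move together: 1 was called higher and 1 lower in C57 hyperoxia, beside 0.223% and 0.714% of all genes. Marco averaged 226.5 FPKM in C57 normoxia and 49.8 in hyperoxia, whereas Clec4f averaged 60.0 and 81.8. The part of these markers in the Fmo1 difference was not tested.

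Fmo5 encodes an enzyme that differs from its relatives in inserting oxygen next to carbonyl groups, and mice lacking it are lean. Its levels in C57 normoxia were 34.7, 40.2, 30.7 and 34.4 FPKM, and in C57 hyperoxia 33.3, 38.6, 29.9 and 40.6 FPKM. In BALBc normoxia they were 58.2, 63.7 and 62.0 FPKM, and in BALBc hyperoxia 42.9, 45.2, 45.6 and 43.9 FPKM. The C57 groups overlapped almost wholly, whereas all BALBc hyperoxia libraries lay below all BALBc normoxia libraries and above all C57 libraries.

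Mean Fmo5 was 35.0 ± 3.93 FPKM in C57 normoxia, 35.6 ± 4.87 in C57 hyperoxia (n = 4 each), 61.3 ± 2.85 in BALBc normoxia (n = 3) and 44.4 ± 1.24 in BALBc hyperoxia (n = 4). In BALBc the hyperoxia mean was 0.724 of the normoxia mean. The log2 difference between hyperoxia and normoxia was -0.46 ± 0.10 in BALBc, which did not pass the threshold, and 0.02 ± 0.09 in C57. The BALBc difference was called in 8 of 26 alternative fits, including 4 that left out a C57 library (normoxia 2 or 3, hyperoxia 3 or 4) and the fit with the replicate block, and ranged from -0.49 to -0.37. The difference of the responses was -0.48 ± 0.14 and was not called under any alternative. BALBc minus C57 was 0.80 ± 0.10 in normoxia and 0.32 ± 0.09 in hyperoxia. Among the 7 libraries rich in genes at 1 fragment, BALBc normoxia 1 and hyperoxia 1 stood at 58.2 and 42.9 FPKM, and in the other class normoxia stood at 62.0 and 63.7 and hyperoxia at 43.9 to 45.6.

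Fmo2 encodes the form that is most abundant in the lung of many mammals. Its levels were 8.13, 8.53, 6.92 and 7.49 FPKM in C57 normoxia and 9.07, 9.28, 8.42 and 8.90 FPKM in C57 hyperoxia. In BALBc normoxia they were 36.4, 27.9 and 27.8 FPKM, and in BALBc hyperoxia 30.8, 26.3, 29.7 and 31.6 FPKM. The lowest BALBc library, at 26.3 FPKM, lay far above the highest C57 library, at 9.28 FPKM, and within each strain the oxygen groups overlapped. BALBc normoxia 1 was the highest of all libraries, and the only library of its group among the 7 rich in genes at 1 fragment. BALBc hyperoxia 1, also among those 7, stood at 30.8 FPKM, within the 26.3 to 31.6 of the rest of its group. The part of that class in the Fmo2 level was not tested.

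Mean Fmo2 in normoxia was 7.77 ± 0.711 FPKM in C57 (n = 4) and 30.7 ± 4.96 in BALBc (n = 3), a ratio of 3.95. In hyperoxia the means were 8.92 ± 0.369 and 29.6 ± 2.30 FPKM (n = 4 each), a ratio of 3.32. BALBc minus C57 was 1.85 ± 0.10 in normoxia and 1.62 ± 0.09 in hyperoxia on the log2 scale, the largest strain differences among the 4 genes. The hyperoxia minus normoxia differences were 0.18 ± 0.09 in C57 and -0.04 ± 0.10 in BALBc. No stretch of 50 bases of Fmo2 or Fmo4 transcripts occurs in transcripts of another gene in GENCODE M21. The 7 markers of lung epithelium summed to 2.90 to 4.71 FPKM in C57 normoxia, 2.46 to 3.26 in C57 hyperoxia, 1.74 to 2.56 in BALBc normoxia and 2.27 to 2.92 in BALBc hyperoxia. Among them Scgb1a1 was listed at 0 in all libraries, Sftpc reached 0.261 FPKM and Sftpa1 reached 2.08 FPKM, and their part in the Fmo2 level was not tested.

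Fmo4 encodes a less studied member of the family. Its levels were 4.995, 3.95, 6.34 and 4.27 FPKM in C57 normoxia and 4.83, 4.98, 4.52 and 4.999 FPKM in C57 hyperoxia. In BALBc normoxia they were 11.9, 8.86 and 7.89 FPKM, and in BALBc hyperoxia 11.6, 9.28, 10.4 and 10.99 FPKM. The strains did not overlap and the oxygen groups of each strain did. The highest BALBc library of each oxygen condition was the one that belongs to those 7, and the part of that class in the level was not tested.

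Mean Fmo4 was 4.89 ± 1.06 FPKM in C57 normoxia, 4.83 ± 0.220 in C57 hyperoxia (n = 4 each), 9.54 ± 2.08 in BALBc normoxia (n = 3) and 10.6 ± 0.986 in BALBc hyperoxia (n = 4). The ratio of BALBc to C57 was 1.95 in normoxia and 2.19 in hyperoxia. On the log2 scale BALBc minus C57 was 0.84 ± 0.14 and 0.99 ± 0.13. Hyperoxia minus normoxia was 0.00 ± 0.13 in C57 and 0.15 ± 0.14 in BALBc. Fmo4 was the only gene of the 4 whose strain gap in FPKM was wider in hyperoxia (5.74) than in normoxia (4.65), with a difference of responses of 0.15 ± 0.19, within its error.

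**Figure D2:**
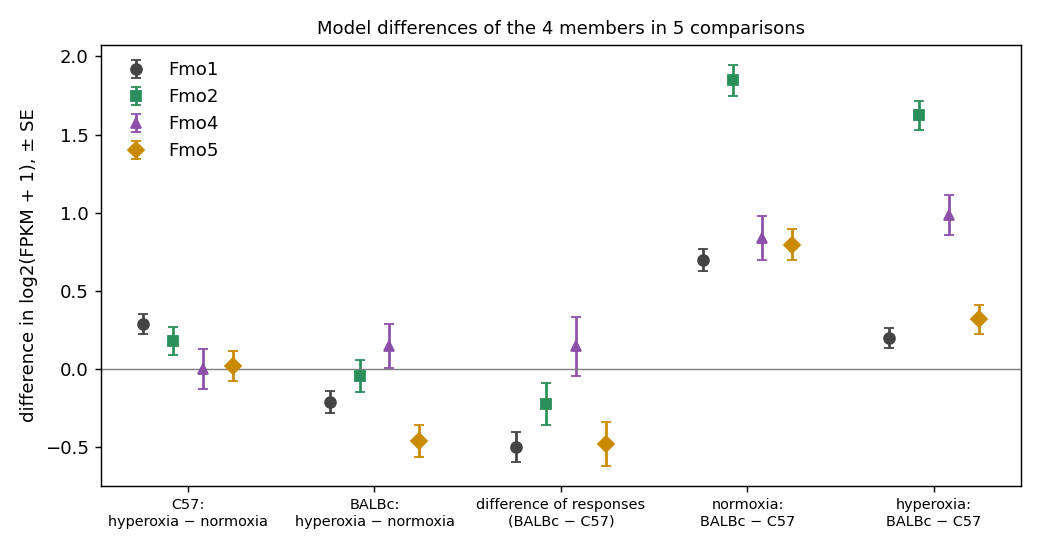
Difference in log2(FPKM + 1) ± SE (y axis) of each of the 4 genes in the 5 comparisons (x axis), from a limma fit over all 15 libraries. All 4 genes lie above 0 in both strain comparisons, Fmo2 at 1.85 and 1.62, and Fmo1 and Fmo5 are near -0.5 for the difference of the oxygen responses.

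The strain comparisons called all 4 genes. All 4 were called higher in BALBc in normoxia, where 30% of the 13026 genes tested were called, 15.4% higher and 14.6% lower. All 4 were called higher in BALBc in hyperoxia, where 23.2% of genes were called, 11.9% higher and 11.3% lower. The C57 and BALBc groups did not overlap for any of the 4 in either condition, which was so, with BALBc higher, for 15.7% of genes in normoxia and 16.7% in hyperoxia, and with BALBc lower for 14.2% and 15.6%. Since the genes were chosen with these results known, nothing is read from the counts. The median log2 strain difference of the 4 was 0.82 in normoxia and 0.65 in hyperoxia, and that of all genes tested was 0.01 and -0.00. In hyperoxia Fmo1 was called in 16 of 26 alternatives. Its call was lost without C57 hyperoxia 1, 2 or 3 or BALBc hyperoxia 3 or 4, and with no variance trend, the replicate block, an Xist covariate, library class as a term or only the groups compared. Fmo5 was called in 21 of 26, and its call was lost without C57 hyperoxia 1 or 3 or BALBc hyperoxia 2 or 3, and with library class as a term. Their log2 differences ranged from 0.16 to 0.22 and from 0.24 to 0.38.

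In the oxygen comparisons limma called 0 of the 4 genes in C57, where 0.937% of all genes were called (0.223% higher and 0.714% lower), and 0 in BALBc, where 0.944% were called (0.407% higher and 0.537% lower). At an unadjusted p under 0.05 there was 1 in C57 (Fmo1) and 2 in BALBc (Fmo1 and Fmo5), beside 14.2% and 12.4% of all genes, and nothing is read from these counts. The oxygen groups did not overlap for Fmo1 in C57, higher in hyperoxia, as for 3.51% of all genes, with 4.38% lower. In BALBc they did not overlap for Fmo1 and Fmo5, lower in hyperoxia, as for 7.15% of all genes, with 6.43% higher. The difference of the responses was called for Fmo1 and for 0.821% of all genes (0.376% higher and 0.445% lower). The oxygen comparisons and their difference share libraries with each other and with the strain comparisons, so they are not separate evidence.

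The nearest genes outside the family were measured beside them. Prrc2c, on the Fmo4 side of the chromosome 1 group, was 1.22 times as high in BALBc in hyperoxia (log2 difference 0.29 ± 0.08, limma adjusted p = 0.0173), and in normoxia its difference of 0.21 ± 0.09 did not pass (adjusted p = 0.0783). Chd1l, a chromatin remodeller beside Fmo5, had strain differences of 0.01 ± 0.13 in normoxia (adjusted p = 0.977) and 0.03 ± 0.12 in hyperoxia (adjusted p = 0.894). Prkab2, a subunit of the AMP-activated kinase on the other side, had 0.28 ± 0.13 (adjusted p = 0.107) and 0.16 ± 0.12 (adjusted p = 0.369). The oxygen differences of these 3 genes did not pass in either strain.

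Genes with the most similar pattern were ranked by Pearson r of log2(FPKM + 1) over the 15 libraries. These r carry the strain gap, since the libraries of each strain lie together. Fmo2 was nearest to Acadvl, a flavoprotein of mitochondrial fatty acid oxidation (r = 0.987), C1s2, a complement protease (0.986) and Glo1, a glyoxalase (0.986). Fmo4 was nearest to Tpm3-rs7 (0.962), Wdfy1 (0.956) and Acadvl (0.953). Fmo1 was nearest to Cpsf2, a factor of mRNA 3′ end formation (0.959), Nat8f2 (0.957) and Mug1, a plasma protease inhibitor (0.956). Mug1 averaged 18.7, 40.0, 131.8 and 53.9 FPKM in C57 at normoxia and hyperoxia and in BALBc at normoxia and hyperoxia, so that its groups ranked as those of Fmo1 did. Fmo5 was nearest to Srd5a1, a steroid reductase (0.967), Hs3st6 (0.940) and Mpst, a sulphurtransferase (0.932).

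With the group means removed, the 4 genes followed each other only loosely over the 15 libraries. The r of their deviations was 0.54 between Fmo1 and Fmo4, 0.35 between Fmo2 and Fmo4, 0.12 between Fmo1 and Fmo2, and -0.41 between Fmo4 and Fmo5. By the same measure Fmo1 was nearest to Slc29a1, a nucleoside transporter (0.925), Pdlim1 (0.887) and Cdca5 (0.883). Fmo5 was nearest to Ttc39c (0.911), Mcrip1 and Zranb3 (both 0.865), Fmo2 to Dnajc7 (0.875), Zfp119a (0.852) and Sephs1 (0.847), and Fmo4 to Cep44 (0.892) and Zfp946 (0.878).

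The genes that supply or surround these enzymes were read from 7 lists with 83 genes tested. In normoxia 28 of them were called higher and 8 lower in BALBc, and in hyperoxia 24 higher and 10 lower, with medians of 0.18 and 0.08 on the log2 scale. Of all genes tested, 15.4% were called higher and 14.6% lower in normoxia, and 11.9% and 11.3% in hyperoxia. These lists were chosen with earlier results of the same data known, so nothing is read from these counts or from those of each list below. Of 22 oxidoreductases of drug metabolism other than P450s, 11 were higher and 2 lower in BALBc normoxia (median 0.30). Aldh2, the mitochondrial acetaldehyde dehydrogenase, averaged 169 ± 6.64 FPKM in C57 (n = 4) and 241 ± 8.13 in BALBc (n = 3; adjusted p = 2.19e-05). The retinaldehyde dehydrogenase gene Aldh1a1 averaged 4.34 ± 1.51 and 16.6 ± 1.45 FPKM (adjusted p = 9.8e-05), its paralogue Aldh1a7 differed by 1.97 ± 0.24 (adjusted p = 2.25e-05) and the alcohol dehydrogenase Adh4 by 0.98 ± 0.14 (adjusted p = 0.000113). Reads could be shared between Aldh1a1 and Aldh1a7, so their separate levels are uncertain. In hyperoxia 10 were higher and 2 lower: Ephx2, the soluble epoxide hydrolase, was higher (0.60 ± 0.08, adjusted p = 8.84e-05), as was the aldehyde oxidase Aox1 (1.10 ± 0.17, adjusted p = 3e-04), while Aox3 (-0.72 ± 0.10, adjusted p = 0.000131) and the xanthine dehydrogenase Xdh (-0.71 ± 0.11, adjusted p = 0.000357) were lower.

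Of 9 hypotaurine and taurine genes, 3 were higher and 2 lower in BALBc normoxia, and 2 were higher and 3 lower in hyperoxia. Vnn1, a pantetheinase that releases cysteamine, averaged 8.15 ± 0.884 FPKM in C57 (n = 4) and 28.9 ± 5.60 in BALBc normoxia (n = 3; log2 difference 1.69 ± 0.18, adjusted p = 6.97e-06), and its relative Vnn3 was lower (-0.76 ± 0.09, adjusted p = 1.63e-05). The aminotransferase Got1 was lower (-0.91 ± 0.17, adjusted p = 0.00109) and the transporter Slc6a13 higher (0.24 ± 0.08, adjusted p = 0.0314). In hyperoxia Csad, which makes hypotaurine, averaged 40.4 ± 8.38 FPKM in C57 and 72.2 ± 11.9 in BALBc (n = 4 each; 0.83 ± 0.14, adjusted p = 0.000652). Vnn1 was higher (1.87 ± 0.17, adjusted p = 1.24e-06), and Vnn3 (-0.55 ± 0.08, adjusted p = 0.000201) and Got1 (-0.92 ± 0.16, adjusted p = 0.000759) were lower. Cdo1 and Ado, the thiol dioxygenases of this route, were not called in any comparison.

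Of 12 choline and methylamine genes, 5 were higher and 2 lower in BALBc normoxia, and 3 higher and 2 lower in hyperoxia. Aldh7a1, which makes betaine, and the dimethylglycine dehydrogenase Dmgdh were among those higher (0.45 ± 0.08 and 0.63 ± 0.11, adjusted p = 0.000472 and 0.000589), and the glycine methyltransferase Gnmt was lower (-0.55 ± 0.15, adjusted p = 0.0107). In hyperoxia Sardh and Gnmt were lower (-0.66 ± 0.09 and -0.87 ± 0.14, adjusted p = 0.000101 and 0.00029), and Dmgdh was higher (0.39 ± 0.10, adjusted p = 0.0125).

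The P450 reductase Por, on which Fmo enzymes do not depend, went the other way from the 4 genes. It averaged 109 ± 8.0 FPKM in C57 normoxia (n = 4) and 63.8 ± 4.97 in BALBc normoxia (n = 3), a log2 difference of -0.77 ± 0.10 (adjusted p = 3.02e-05), and -0.47 ± 0.09 in hyperoxia (adjusted p = 0.00138). Of the other genes among 8 of electron transfer and FAD supply, Flad1, the FAD synthase, was higher in BALBc in both conditions (0.28 ± 0.08 and 0.34 ± 0.08, adjusted p = 0.0219 and 0.00568) and Rfk, the riboflavin kinase, in hyperoxia (0.30 ± 0.09, adjusted p = 0.0256). Of 7 NADPH-supplying genes, Idh1 (0.46 ± 0.09, adjusted p = 0.0015), Me1 (0.74 ± 0.19, adjusted p = 0.0085) and Taldo1 (0.46 ± 0.13, adjusted p = 0.016) were higher and Pgd lower (-0.29 ± 0.09, adjusted p = 0.0252) in BALBc normoxia. In hyperoxia Me1 was higher (0.85 ± 0.18, adjusted p = 0.00273) and Pgd lower (-0.25 ± 0.08, adjusted p = 0.0436).

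Among 21 liver transcription factors and receptors, 4 were called in normoxia, all higher in BALBc. They included Ppara, the fatty acid receptor (0.58 ± 0.11, adjusted p = 0.00112), Nr1i2, the pregnane X receptor (0.24 ± 0.07, adjusted p = 0.0262) and Foxa1 (0.48 ± 0.16, adjusted p = 0.0344). In hyperoxia 5 were higher and 1 lower, and those higher included Ppara (0.70 ± 0.10, adjusted p = 0.000155), Nr1i2 (0.40 ± 0.07, adjusted p = 0.000665) and Cebpb (0.41 ± 0.12, adjusted p = 0.0269). Of 4 methionine sulphoxide reductases, which undo S-oxidation, Msrb1 was higher in BALBc in both conditions (0.79 ± 0.11 and 0.31 ± 0.10, adjusted p = 7.9e-05 and 0.0413).

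**Figure D3:**
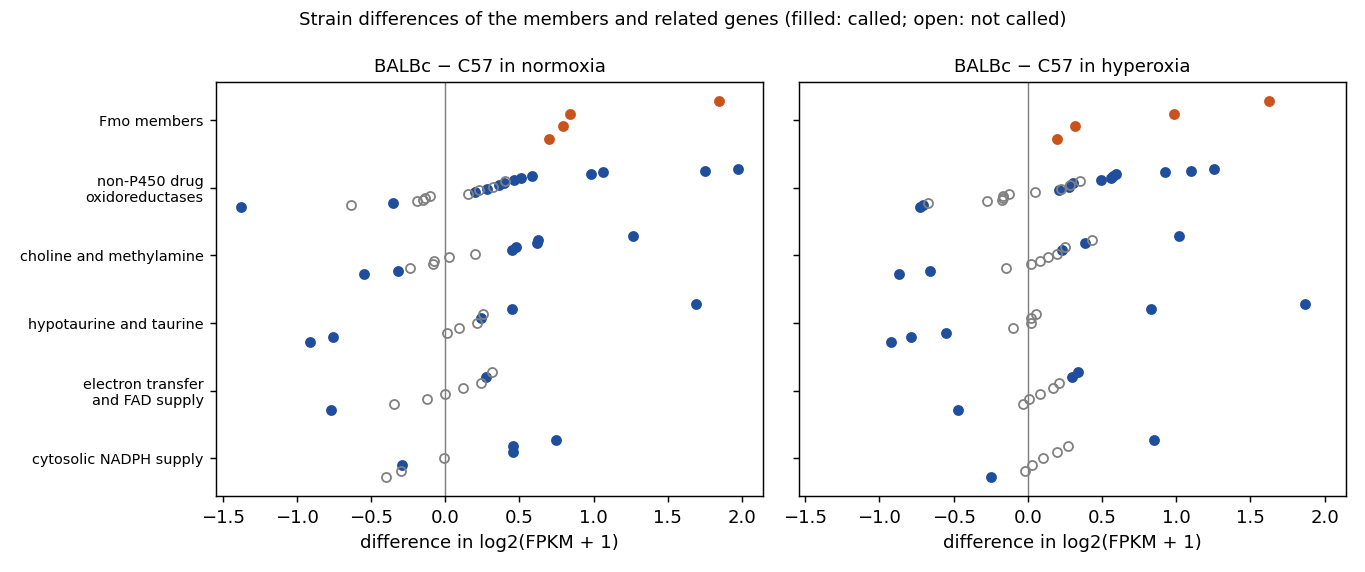
BALBc minus C57 difference in log2(FPKM + 1) (x axis) in normoxia (left) and hyperoxia (right) for the 4 Fmo genes (orange) and the tested genes of 5 related lists (rows). Filled points passed an adjusted p of 0.05 in limma and open points did not; the vertical offset within a row only separates points. The 4 Fmo genes, chosen with these differences known, all lie to the right of 0. The 5 lists drawn hold genes on both sides, such as Vnn1 at 1.69 and Got1 at -0.91 in normoxia. Transcription factors and methionine sulphoxide reductases are not drawn, and nothing is read from the contrast between the Fmo genes and the lists.

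The same 83 genes were also compared between the oxygen groups. In C57 limma called 0 of them, beside 0.937% of all genes, with 17 at an unadjusted p under 0.05, beside 14.2%. In BALBc 0 were higher and 3 lower in hyperoxia, beside 0.407% and 0.537% of all genes. The lists were chosen with earlier results known, so nothing is read from these counts. Baat, which conjugates bile acids to taurine, averaged 17.1 ± 1.78 FPKM in normoxia (n = 3) and 6.60 ± 1.51 in hyperoxia (n = 4; -1.27 ± 0.21, adjusted p = 0.0113). The alcohol dehydrogenase Adh1 fell by 0.45 on the log2 scale (SE 0.07, adjusted p = 0.011) and Gnmt by 0.66 (SE 0.15, adjusted p = 0.0497). For the difference of the responses 0 of the 83 were called, beside 0.821% of all genes, with 13 at an unadjusted p under 0.05. The smallest p there was that of Adh1 (-0.45 ± 0.10, adjusted p = 0.0571).

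Markers of some other cell types differed between the strains. Among all genes tested, 15.4% were called higher and 14.6% lower in BALBc in normoxia, and 11.9% and 11.3% in hyperoxia. In bulk tissue fewer cells of a type and less RNA per cell cannot be told apart. Of 10 Kupffer cell and macrophage markers 9 were lower in BALBc in each condition, and their summed level was 648 to 1022 FPKM in C57 normoxia, 461.5 to 553 in C57 hyperoxia, 249 to 280.1 in BALBc normoxia and 231 to 301 in BALBc hyperoxia. Of 12 hepatocyte markers 2 were higher and 5 lower in BALBc normoxia, and their sums overlapped, at 94950 to 120500 FPKM in C57 normoxia and 96640 to 104800 in BALBc normoxia. In hyperoxia the hepatocyte sums were 101500 to 104200 FPKM in C57 and 91570 to 93870 in BALBc. Of 8 erythroid markers 2 were higher in BALBc normoxia and 5 in hyperoxia, but their sums overlapped. The erythroid sums were 1376 to 2853 FPKM in C57 normoxia and 1297 to 1562 in BALBc normoxia. In hyperoxia they were 1086 to 2559 in C57 and 1238 to 1664 in BALBc. Of 11 stellate cell and fibroblast markers 2 were higher in BALBc normoxia, with sums of 137 to 207 FPKM in C57 and 182 to 199 in BALBc. In hyperoxia 1 was higher and 1 lower, with sums of 167 to 198 and 177 to 192 FPKM. Of 10 endothelial markers 2 were higher and 2 lower in normoxia, and 3 higher and 1 lower in hyperoxia. Of 5 bile duct markers 1 was lower in normoxia and 2 in hyperoxia. Of 2 lung epithelium markers that could be tested, 0 were called at an adjusted p of 0.05 in limma. The part of these cell types in the strain differences of the Fmo genes was not tested.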

How the data were processed

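Liver RNA of 15 libraries was analysed from a table of FPKM that the authors deposited. Per the submitters' processing notes, HISAT2 2.0.5, featureCounts 1.5.0-p3 and the build GRCm38 were used; per the labels' protocols, TRIzol was used for extraction and a NEBNext Ultra II kit for the libraries. Strandedness and the handling of shared reads were not given in the sources used here. GRCm38 represents a C57 strain, and what this does to BALBc values was not tested.

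Of the identifiers, 54409 matched GENCODE M21 and 123 did not. Merged exon lengths gave the fragments behind each FPKM: below 30 fragments, 98.1% to 98.7% of values came out whole, with a tolerance of 0.05. Libraries with more than 25% of the genes at 1 to 10 fragments at exactly 1 fragment formed a class defined from the data. The 13026 genes that reached 1 FPKM in 3 or more libraries were tested. Their log2(FPKM + 1) went into a limma model (limma 3.58.1, R 4.3.3) with 1 mean per group over all 15 libraries, empirical Bayes moderation and a variance trend. P-values were adjusted by Benjamini-Hochberg over all genes within each of 5 comparisons and called under 0.05. The model was also run on simulated data with 200 changed genes, and the outcome is not given here. Its noise was independent between libraries, with no effect of library class or sex, so it cannot speak to those. All means and SDs are of FPKM, and log2 differences are on the log2(FPKM + 1) scale, which understates changes of low genes.

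The members and all lists were chosen with earlier results of these data known. The naming rule took the 4 genes, the other family rows, up to 4 called genes with the smallest p per list and comparison, the 3 nearest genes by Pearson r and the flanking genes; some genes that it takes are not reported here. Same-numbered libraries were not paired in the main fit. Of 21 such pairs 1 had a correlation of deviations above 0.1, and 4 of 15 libraries correlated best with their own number. These correlations do not settle whether the numbers pair libraries. BALBc normoxia 1 and BALBc hyperoxia 1 had the largest scaling totals (1.91e+07 and 1.85e+07 fragments). They were also the only BALBc libraries rich in genes at 1 fragment. Summaries were made in Python 3.11.15 (pandas 2.3.3, numpy 2.4.6) and plots with matplotlib 3.10.9.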

Additional observations from a re-analysis of the deposited data

Results flagged for a closer look

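Fmo1 is listed because its oxygen response differed between the strains in the fit over all genes: the difference of the responses, BALBc minus C57, was -0.50 on the log2(FPKM + 1) scale. The gene was chosen with these values known, so this is a description and no independent evidence, and the call was kept in 13 of 25 alternatives. Every C57 hyperoxia library was above every C57 normoxia library, and every BALBc hyperoxia library was below every BALBc normoxia library. In 12 combinations of gene and group with 4 libraries, 0 held a library far from the others by Dixon's criterion. Chance flags about 1 in 20 groups. BALBc normoxia, with 3 libraries, was not checked for any gene. In that group Fmo2 stood at 36.4, 27.9 and 27.8 FPKM.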

How the results depend on the processing

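The count of Fmo genes called was 4 in normoxia between strains under all alternatives run. In hyperoxia between strains it was 4, 3 with no variance trend, the replicate block, the Xist covariate or only the groups compared, and 2 with library class as a term; leaving out 1 library gave 2 to 4. For oxygen in C57 it was 0, and 1 (Fmo1) with a pseudocount of 0.1, quantile normalization, median scaling or a minimum of 5 FPKM; leaving out 1 library gave 0 in every refit. For oxygen in BALBc it was 0, and 1 (Fmo5) with a minimum of 5 FPKM, the replicate block, library class as a term or only the groups compared; leaving out 1 library gave 0 to 1. For the difference of the responses it was 1 (Fmo1), and 0 with the replicate block, array weights or library class as a term; leaving out 1 library gave 0 to 1. The causes were not tested. The main fit did not pair libraries by replicate number, and whether the numbers pair them is not known. With the replicate block the counts of Fmo genes called were 4 between strains in normoxia and 3 in hyperoxia. They were 0 in C57, 1 in BALBc and 0 for the difference.

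None of the log2 differences of called Fmo genes changed sign under any alternative. Of 516 values 1 moved by more than the pooled SD between replicates, Fmo1 in BALBc under quantile normalization (-0.11). Many of the 516 could not move. A changed filter, no variance trend or a fit of only the groups compared leaves a log2 difference as it was. So does leaving out a library from outside the comparison, so these counts are no measure of stability. Over all genes, the C57 oxygen count was 122, and 70 without a filter, 74 without the variance trend, 79 with the replicate block, 67 with Xist as a covariate, 47 with array weights, 14 with library class and 20 with only the groups compared. The BALBc count was 123, and 78 without a filter. The count for the difference was 107, and 29 without a filter, 67 with the replicate block, 48 with array weights and 28 with library class. Between strains it was 3910 in normoxia, and 2242 with only the groups compared, and 3025 in hyperoxia, and 1935 with library class. Leaving out 1 library gave 36 to 237 for C57, 24 to 156 for BALBc and 40 to 162 for the difference. Depth limits Fmo4 most, at 237 to 843 fragments per library.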
